A study of Mus musculus with 6 samples.

Results

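The 6 genes Mpo, Elane, Prtn3, Ctsg, Ms4a3 and Prss57 are expressed at the promyelocyte stage, at which a neutrophil precursor fills its primary granules. They were taken by symbol from a table of 24421 genes, and all 6 were found and were among the 13411 that passed the filter on low counts. RNA was measured in Lin-CD117+ cells sorted from the bone marrow of female CByB6F1 mice aged 2 to 5 months; this fraction lacks antigens of mature lineages, carries the KIT receptor, and holds stem and progenitor cells. The 3 RUX pools (4, 5 and 6) came from mice treated with ruxolitinib, an inhibitor of the kinases JAK1 and JAK2, at a dose and for a time that the labels leave out, and the 3 untreated pools (1, 2 and 3) came from mice that the labels call untreated or normal, without saying whether they received a vehicle. Cells of 2 to 3 mice were combined in a pool, so every value below averages over a few animals and the spread between pools is a spread between such averages. The question asked of these genes is whether the early granulocyte stages varied from pool to pool, and whether that variation followed the treatment.

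Primary, or azurophil, granules are the first granules that a developing neutrophil makes. Myeloperoxidase and the serine proteases that fill them are transcribed mainly at the promyelocyte stage and are shut down before the secondary granule proteins of the myelocyte appear. The proteins are then carried in stored form into the mature cell. The RNA of these genes in a bone marrow sample therefore points to early precursors and not to mature neutrophils. It does not single out the neutrophil line, since Ms4a3 is expressed in monocyte progenitors too. In a bulk library, fewer cells of a type and less RNA per cell cannot be told apart.

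Of the 6 genes, 5 are granule enzymes. Mpo (chr11:87793784-87804412 in mm10, plus strand, 14 exons) encodes myeloperoxidase, which makes hypochlorous acid. Elane (chr10:79886312-79888216, plus strand, 5 exons) encodes neutrophil elastase, and Prtn3 (chr10:79879667-79883172, plus strand, 5 exons) encodes proteinase 3. Elane and Prtn3 were neighbours, with a gap of 3139 bases between them. Prss57 (chr10:79781474-79788985, minus strand, 5 exons) encodes the serine protease NSP4 and lay in the same cluster, 6 genes away from Prtn3, so that the 3 protease genes spanned 106743 bases. Ctsg (chr14:56099881-56102574, minus strand, 5 exons) encodes cathepsin G. Ms4a3 (chr19:11629499-11640851, minus strand, 7 exons) encodes a membrane protein of the MS4A family that is expressed in granulocyte and monocyte progenitors and is no granule enzyme.

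The genes lie on 4 chromosomes, and their promoters are shown as a description. The part of promoter sequence in their variation between pools was not tested. RefSeq promoter sequences on GRCm38.p6, the assembly that mm10 names, were matched for 5 of the 6 genes; Prss57 had no entry. Each line gives the 250 bases before the transcription start, read 5′ to 3′ on the gene's own strand, and the capitals mark GGAAGT, a core that factors of the ETS family bind, PU.1 among them.
Mpo (chr11:87793534-87793783, plus strand): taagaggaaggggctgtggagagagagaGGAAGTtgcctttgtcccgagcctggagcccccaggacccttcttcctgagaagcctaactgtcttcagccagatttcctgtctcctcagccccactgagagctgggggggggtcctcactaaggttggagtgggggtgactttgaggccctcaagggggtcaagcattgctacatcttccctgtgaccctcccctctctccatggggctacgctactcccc
Elane (chr10:79886062-79886311, plus strand): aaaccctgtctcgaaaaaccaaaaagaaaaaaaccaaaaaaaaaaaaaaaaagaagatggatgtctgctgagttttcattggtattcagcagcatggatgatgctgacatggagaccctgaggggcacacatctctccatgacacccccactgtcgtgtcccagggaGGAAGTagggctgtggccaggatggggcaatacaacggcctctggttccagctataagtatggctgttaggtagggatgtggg
Prtn3 (chr10:79879417-79879666, plus strand): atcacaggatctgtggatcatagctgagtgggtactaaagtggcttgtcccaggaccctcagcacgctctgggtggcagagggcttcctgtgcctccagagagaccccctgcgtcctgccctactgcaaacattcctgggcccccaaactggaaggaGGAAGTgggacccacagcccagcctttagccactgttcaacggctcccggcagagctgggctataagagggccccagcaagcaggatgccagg
Ctsg (chr14:56102575-56102824, minus strand): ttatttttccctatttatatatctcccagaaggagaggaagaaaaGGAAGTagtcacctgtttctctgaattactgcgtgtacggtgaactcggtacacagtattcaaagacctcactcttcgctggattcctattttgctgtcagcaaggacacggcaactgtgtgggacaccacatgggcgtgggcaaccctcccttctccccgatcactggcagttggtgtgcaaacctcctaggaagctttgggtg
Ms4a3 (chr19:11640852-11641101, minus strand): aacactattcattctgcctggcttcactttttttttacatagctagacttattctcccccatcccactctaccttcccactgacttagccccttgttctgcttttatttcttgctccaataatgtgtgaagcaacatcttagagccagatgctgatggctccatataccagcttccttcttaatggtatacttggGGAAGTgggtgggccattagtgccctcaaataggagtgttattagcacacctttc

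GGAAGT occurred in all 5 promoters, once in each and on the strand of the gene, whereas 19.7% of the 32851 promoters in the same table held it on either strand within 250 bases. Its first base lay 83 bases before the start in Elane, 93 in Prtn3, 55 in Ms4a3, 205 in Ctsg and 222 in Mpo. GAGGAA, another form bound by PU.1, occurred in 4 of the 5 (23.3% of all promoters), and in Elane, Prtn3 and at 1 site of Mpo it overlapped the capitals. The MYB core AACNG occurred in 4 of the 5 (74.2% of all promoters). TTNNGNAA, a C/EBP form, occurred only in Ms4a3 among the 5 (36.8% of all promoters), and TGTGGT, a RUNX core, only in Ctsg (14.0%). The 11 motifs were searched on both strands and chosen with the sequences in view, so these matches are a description of letters in a window and say nothing of which factor binds.

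The libraries held 46027491, 47730958 and 48747137 counted read pairs in RUX pools 4, 5 and 6 and 27354768, 38691826 and 37360937 in untreated pools 1, 2 and 3. Every untreated pool was thus shallower than every RUX pool, but the lowest count of any of the 6 genes was 1203 read pairs (Prss57 in untreated pool 2), where counting error alone is 2.88%. RUX pool 4 and untreated pool 3 were the highest of their groups for the mean of the 6 genes, and untreated pool 2 was the lowest of all, so the comparison and the spread are also given without them. Levels are compared between genes as TPM, a length-normalised share of the library in which read pairs are divided by exon length, and between pools as CPM, the normalised read count of the scaled library of tested genes.

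Together the 6 genes took 1.05, 1.04 and 0.866% of all read pairs in RUX pools 4, 5 and 6 and 0.771, 0.488 and 1.37% in untreated pools 1, 2 and 3. The extremes were both untreated, and the RUX pools fell between them. The 95% Wilson interval of the lowest share reached only from 0.486 to 0.490%; such intervals cover counting error alone. Mpo supplied 62.3 to 75.2% of these pairs in the 6 pools.

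Ordered by level per length, Mpo stood first with a mean of 4450 TPM over the 6 pools, followed by Elane with 2668, Prtn3 with 1067, Ctsg with 1056, Ms4a3 with 459 and Prss57 with 39.3 TPM. Mpo ranked between 7 and 28 among all genes of a pool. The order Mpo, Elane, then Prtn3 or Ctsg, then Ms4a3, then Prss57 held in 6 of 6 pools. Prtn3 and Ctsg did not differ beyond their spread: Prtn3 was the higher in 4 of the 6 pools, at 0.754 to 1.17 times the TPM of Ctsg. The level of Prss57 is understated, since 1157 of its 2693 exon bases (43.0%) also belong to Fstl3 on the opposite strand and read pairs over them were assigned to neither gene by the counting tool's default; over the 1536 unshared bases its mean was 68.9 TPM, chosen as an alternative after seeing the data, and it was still the lowest of the 6. Fstl3 itself had 7 to 22 counts in a pool.

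Mpo had 6973, 7182 and 6035 CPM in RUX pools 4, 5 and 6 and 5487, 3630 and 9240 CPM in untreated pools 1, 2 and 3. The RUX pools lay close together, at 1.19-fold from lowest to highest, while the untreated pools spanned 2.55-fold and enclosed them. Mpo averaged 6730 ± 611 CPM in RUX pools and 6119 ± 2858 CPM in untreated pools (SD, n = 3 each), a log2 fold change of 0.14 ± 0.26 (SE; 95% interval -0.41 to 0.69; edgeR adjusted p = 1.00, exact permutation p = 0.7).

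Elane, the protease with the highest level, had 1949, 1473 and 1237 CPM in RUX pools 4, 5 and 6 and 894, 493 and 2429 CPM in untreated pools 1, 2 and 3. The highest pool was 4.92-fold above the lowest, both were untreated, and the groups overlapped. Its means were 1553 ± 363 CPM in RUX pools and 1272 ± 1022 CPM in untreated pools, with a log2 fold change of 0.29 ± 0.41 (95% interval -0.58 to 1.16; edgeR adjusted p = 1.00, exact permutation p = 0.5).

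Prtn3, the neighbour of Elane, had 948, 624 and 432 CPM in RUX pools 4, 5 and 6 and 388, 294 and 890 CPM in untreated pools 1, 2 and 3. RUX pool 4 held the highest value here, the only gene of the 6 for which untreated pool 3 came second, and the RUX pools themselves spanned 2.19-fold. The means were 668 ± 261 CPM in RUX pools and 524 ± 320 CPM in untreated pools, and the log2 fold change of 0.35 ± 0.35 was the largest of the 6 (95% interval -0.40 to 1.10; edgeR adjusted p = 1.00, exact permutation p = 0.4).

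Ctsg had 836, 612 and 422 CPM in RUX pools 4, 5 and 6 and 532, 287 and 952 CPM in untreated pools 1, 2 and 3. RUX pool 6 was below untreated pool 1, so that the values of the groups alternated. With 624 ± 207 CPM in RUX pools and 590 ± 336 CPM in untreated pools, its log2 fold change of 0.080 ± 0.34 was the smallest of the 6 (95% interval -0.64 to 0.80; edgeR adjusted p = 1.00, exact permutation p = 0.8).

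Prss57, the protease with the lowest level, had 79.1, 65.0 and 48.97 CPM in RUX pools 4, 5 and 6 and 49.9, 30.8 and 88.9 CPM in untreated pools 1, 2 and 3. Its pools ran in the same order as those of Ctsg, on another chromosome. The means of 64.4 ± 15.1 CPM in RUX pools and 56.5 ± 29.6 CPM in untreated pools gave a log2 fold change of 0.19 ± 0.29 (95% interval -0.45 to 0.82; edgeR adjusted p = 1.00, exact permutation p = 0.7).

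Ms4a3, the membrane protein, had 408, 256 and 198 CPM in RUX pools 4, 5 and 6 and 184, 94.6 and 466 CPM in untreated pools 1, 2 and 3. Its pools ran in the same order as those of Elane, and its highest pool was likewise 4.92-fold above its lowest. It averaged 287 ± 108 CPM in RUX pools and 248 ± 194 CPM in untreated pools, with a log2 fold change of 0.21 ± 0.42 (95% interval -0.69 to 1.11; edgeR adjusted p = 1.00, exact permutation p = 0.6).

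**Figure D1:**
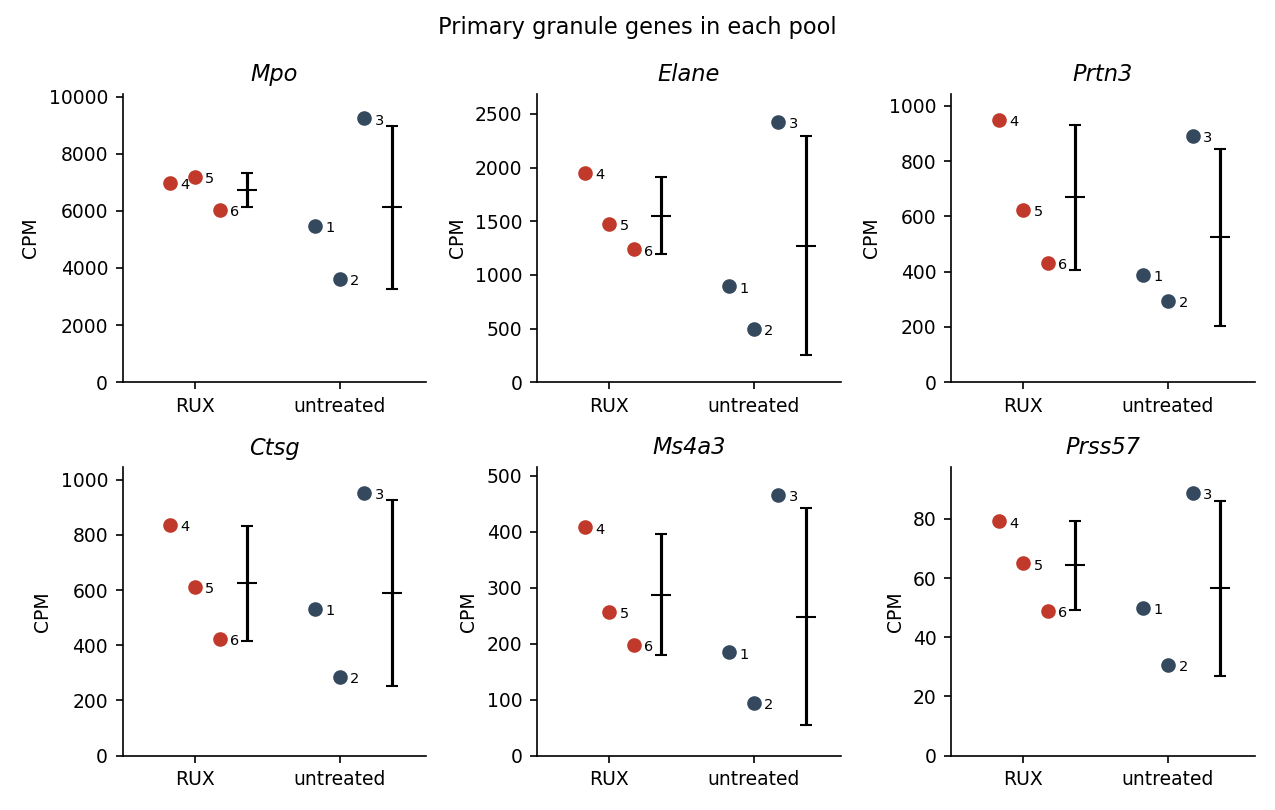
CPM (linear axis from 0) of the 6 genes in each pool, RUX pools 4 to 6 left of untreated pools 1 to 3; numbers beside points are pool numbers and bars are means with SD over 3 pools. Untreated pool 2 is the lowest point of each panel, and the untreated points enclose the RUX points except for Prtn3, where RUX pool 4 is highest.

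None of the 6 genes was called different between RUX and untreated pools (0 of 6 at an adjusted p under 0.05 by edgeR's quasi-likelihood test), and the groups overlapped for 6 of 6. The same test called 0 of 13411 genes tested (0%), and the groups stood without overlap for 6.24% of them (RUX pools above in 2.99%, below in 3.25%). Of the genes tested, 254 (1.89%) had an unadjusted p under 0.05, none of these a primary granule gene. DESeq2 and limma-voom also called 0 genes, limma-voom with quality weights called 1, and edgeR with no filter on low counts called 14 of 19186 genes (0.073%); none of these was one of the 6. Two-sided exact permutation tests over the pools gave p from 0.4 (Prtn3) to 0.8 (Ctsg), where 3 against 3 pools cannot give less than 0.1. The fitted log2 fold changes were above 0 for all 6, with a median of 0.20 against -0.0036 over all genes tested, of which 49.2% were above 0. The 6 values share the same pools and are not independent, and single pools moved them in both directions. Without untreated pool 2 the fold changes of Mpo, Elane, Ctsg, Ms4a3 and Prss57 were below 0 (-0.12, -0.086, -0.24, -0.17 and -0.10), and that of Prtn3 was 0.074. Without RUX pool 4 those of Ctsg and Ms4a3 were likewise below 0 (-0.18 and -0.12), and that of Prtn3 was 0.019. Without untreated pool 3 all 6 were larger, at 0.56 for Mpo, 1.16 for Elane, 0.97 for Prtn3, 0.61 for Ctsg, 1.04 for Ms4a3 and 0.68 for Prss57, with edgeR adjusted p of 0.708 for Elane and 0.998 for the others. Without both untreated pool 3 and RUX pool 4 they were 0.54 for Mpo, 0.97 for Elane, 0.63 for Prtn3, 0.34 for Ctsg, 0.71 for Ms4a3 and 0.50 for Prss57 (median 0.59; edgeR adjusted p of 0.989 for each). The intervals from all pools were wide, reaching as a fold change from 0.751 to 1.61 for Mpo, the narrowest, and from 0.619 to 2.17 for Ms4a3, the widest on the log2 scale.

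**Figure D2:**
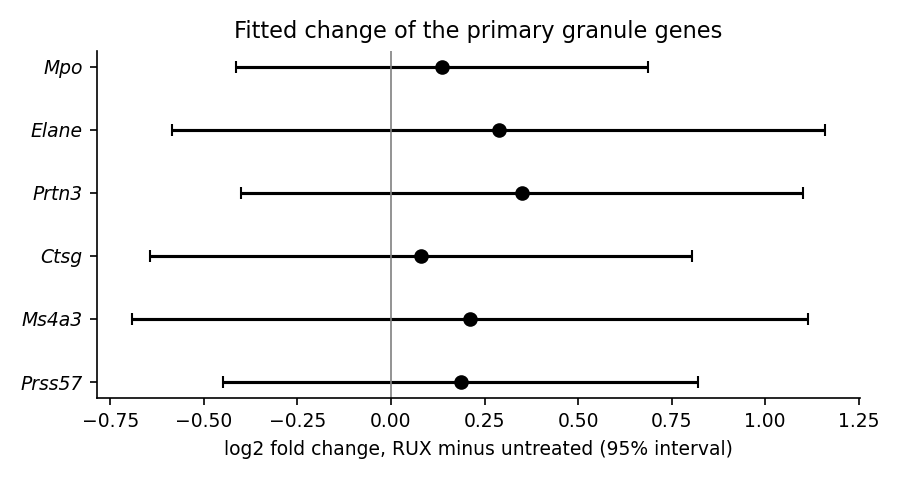
Fitted log2 fold change, RUX minus untreated, of each gene (point) with its 95% interval (bar) from edgeR. Every point lies between 0.080 and 0.35, and every interval crosses 0.

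The 6 genes spread widely between pools of the same group. The within-group SD of log2(CPM + 1), pooled over both groups, was 0.487 for Mpo, 0.584 for Prss57, 0.703 for Ctsg, 0.710 for Prtn3, 0.854 for Elane and 0.894 for Ms4a3. The median of the 13411 genes tested was 0.201 and their 95th percentile 0.411, so all 6 lay above it, from the 97.8th percentile (Mpo) to the 99.8th (Ms4a3). By the biological coefficient of variation that edgeR fits from the counts, they stood at 22.9% (Mpo) to 35.6% (Ms4a3), against a median of 16.99%, and so at lower percentiles, 72.8 to 89.6. By the SD, 23 genes had a larger spread than Ms4a3 and 26 a larger one than Elane, against 291 for Mpo. Leaving out untreated pool 3 moved the median of the 6 the most, to 0.466 against 0.706 with all pools, which was still at the 97.8th percentile of the genes tested. Without both untreated pool 3 and RUX pool 4, an alternative added after seeing the data, it was 0.420, at the 96.8th percentile.

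The spread was larger among untreated than among RUX pools for each of the 6 genes. The SD of log2(CPM + 1) was 0.134 over RUX pools and 0.675 over untreated pools for Mpo, and 0.331 over RUX pools and 1.16 over untreated pools for Elane. For Ms4a3 it was 0.526 over RUX pools and 1.15 over untreated pools, and for Prtn3, where the groups were closest, 0.566 over RUX pools and 0.829 over untreated pools. With 3 pools in a group this difference in spread was not tested, and its share among all genes tested was not counted. It was not particular to the 6 genes. From lowest to highest pool, S100a8 spanned 13.6-fold over untreated and 4.49-fold over RUX pools, and Kit 2.40-fold and 1.41-fold. Cpa3 went the other way, at 1.20-fold over untreated and 1.69-fold over RUX pools.

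**Figure D3:**
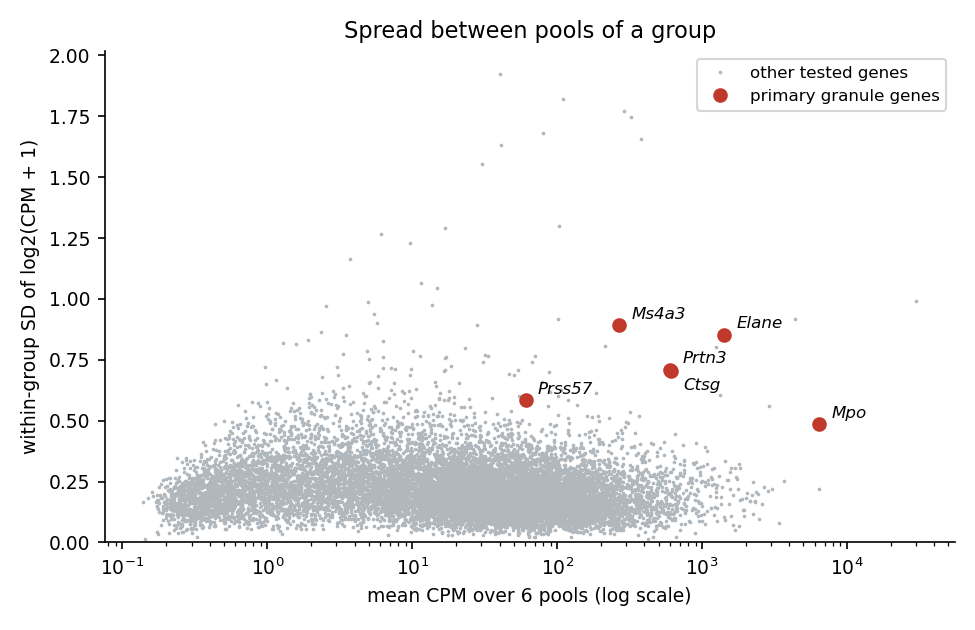
Within-group SD of log2(CPM + 1) against mean CPM over the 6 pools (log axis) for each gene tested (grey) and for the 6 primary granule genes (red). The 6 lie between 0.487 and 0.894, above the 95th percentile of all genes tested (0.411).

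The 6 genes varied together. Over the 6 pools, Pearson's r of log2(CPM + 1) between 2 of them was 0.885 to 0.994 (median of 15 pairs 0.965), with two-sided exact permutation p of 0.00139 to 0.0125 and adjusted values, over the 15 pairs, of 0.00595 to 0.0125. Spearman's rho was 0.829 to 1, and passed an adjusted p of 0.05 for 14 of the 15 pairs by the same exact test; for Mpo with Prtn3 it was 0.829 (exact permutation p = 0.0583, adjusted 0.0583). The smallest p that 720 pairings can give is 0.00139. The tightest pair was Ms4a3 with Prss57 (r = 0.994), which lie on different chromosomes and encode proteins of different families, and the loosest was Mpo with Prtn3 (r = 0.885). The neighbours Elane and Prtn3 (r = 0.948) were no closer to each other than Elane was to Ms4a3 (r = 0.984). For each pair, r was also taken without the 2 pools farthest from the median of its first gene, in the order the 6 are listed. The pools left out were untreated pools 2 and 3, or RUX pool 4 and untreated pool 2 where Prtn3 came first. This r was 0.644 (Mpo with Ctsg) to 0.986 (Prtn3 with Prss57) with a median of 0.907. After each group's mean was subtracted, r was 0.874 to 0.994. All 15 pairs share the same 6 libraries, so they are not 15 independent observations.

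They did not move by the same amount. Against the mean log2 deviation of the other members, Ms4a3 had a slope of 1.35 and Elane of 1.30, Prtn3 of 1.00, Ctsg of 0.937, Prss57 of 0.806 and Mpo of 0.622. Mpo, the most abundant, thus changed least between pools, and its share of the sum was highest where the sum was lowest (75.2% in untreated pool 2). As a percentage of the TPM of Mpo in the same pool, Elane stood at 77.3, 56.8 and 56.7 in RUX pools 4, 5 and 6 and at 45.1, 37.6 and 72.8 in untreated pools 1, 2 and 3. Prtn3 stood at 35.7, 22.8 and 18.8% of Mpo in RUX pools 4, 5 and 6 and at 18.6, 21.3 and 25.3% in untreated pools 1, 2 and 3. Each of the other 5 genes reached its highest percentage of Mpo in RUX pool 4, and the groups overlapped for each.

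As list means, the primary, secondary and tertiary granule genes ran through the pools in the same order except in untreated pool 2. Each list was summarised in each pool as the mean deviation of log2(CPM + 1) from every gene's 6-pool mean. For the 6 primary granule genes this was 0.57, 0.18 and -0.21 in RUX pools 4, 5 and 6 and -0.29, -1.02 and 0.77 in untreated pools 1, 2 and 3. A list of 12 other early neutrophil progenitor genes ran much alike, at 0.43, 0.023 and -0.29 in RUX pools 4, 5 and 6 and -0.19, -0.69 and 0.72 in untreated pools 1, 2 and 3. The 9 secondary granule genes of the myelocyte stage instead stood at 0.39, 0.14 and -1.03 in RUX pools 4, 5 and 6 and at -1.76, 0.98 and 1.27 in untreated pools 1, 2 and 3. Untreated pool 2 was thus the lowest of all pools for the primary granule genes and the second highest for secondary granule genes, while untreated pool 1 was the lowest for secondary granule genes. The other 5 pools stood in 1 order for the primary, secondary and tertiary lists alike: untreated pool 1 lowest, then RUX pools 6, 5 and 4, and untreated pool 3 highest. The other early list did not keep this order, since RUX pool 6 was below untreated pool 1. Singly, Elane and Ms4a3 kept it, and Mpo, Prtn3, Ctsg and Prss57 did not. The 11 tested genes of tertiary granules and mature neutrophils behaved like the secondary ones, at 0.57 in untreated pool 2 and -1.02 in untreated pool 1.

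**Figure D4:**
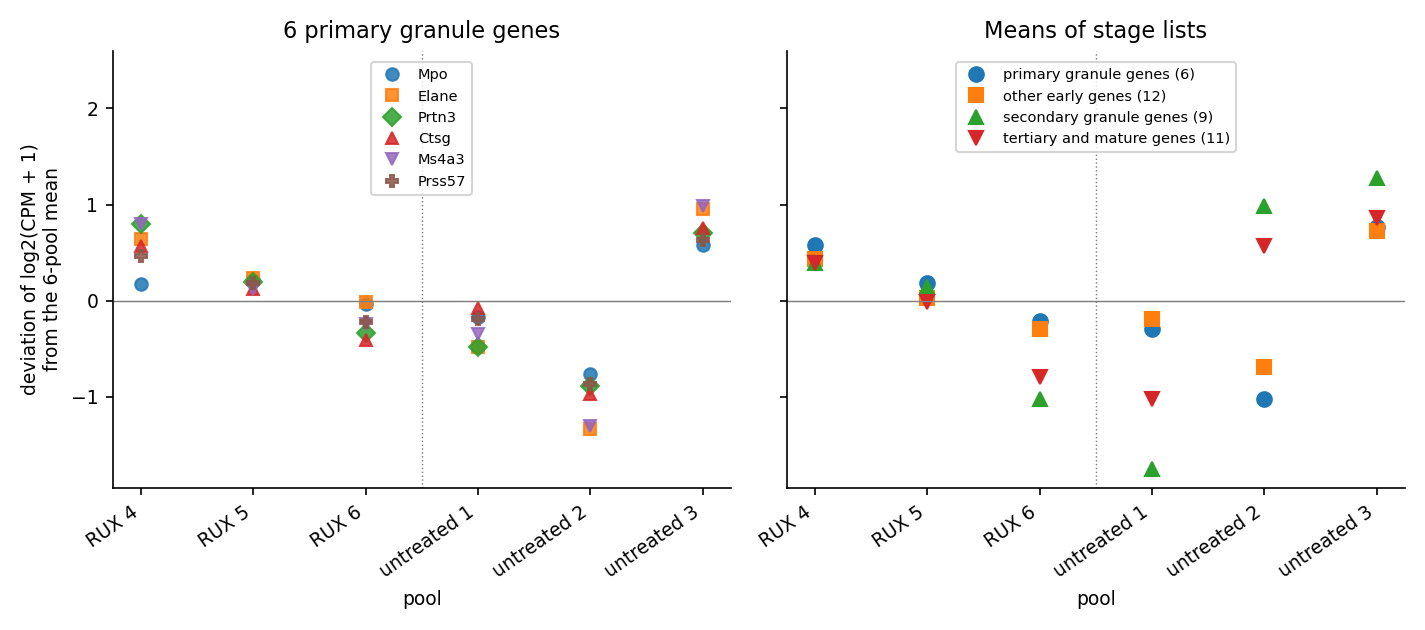
Deviation of log2(CPM + 1) from the 6-pool mean in each pool, for the 6 primary granule genes singly (left panel) and for the means of 4 stage lists (right panel), with RUX pools left of the dotted line and untreated pools right of it. In untreated pool 2 the primary granule genes and other early genes are low (-1.02 and -0.69) and the secondary and tertiary lists high (0.98 and 0.57).

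Single genes showed the same contrast in untreated pool 2. Camp, the cathelicidin of secondary granules, had 130, 77.3 and 24.2 CPM in RUX pools 4, 5 and 6 and 12.5, 202 and 209 CPM in untreated pools 1, 2 and 3. S100a8, a subunit of calprotectin and the most abundant of the late genes, had 497, 254 and 111 CPM in RUX pools 4, 5 and 6 and 54.5, 609 and 739 CPM in untreated pools 1, 2 and 3. Both were more than 10 times higher in untreated pool 2 than in untreated pool 1, whereas Elane was lower there. Over the 6 pools the median r of the secondary list with the mean of the primary granule genes was 0.219 and that of the tertiary list 0.267, against 0.925 for the other early genes; these are descriptions over 6 libraries, each gene sharing their depth and cell composition, and with untreated pool 2 set aside the means of the primary, secondary and tertiary lists had the same order over the other 5 pools. Hp, which encodes haptoglobin, was the exception among the secondary genes, with an r of 0.943. Among the other early genes Hgf ran against the 6 (r = -0.609), and Plac8, the most abundant of that list, had an r of 0.756. The lists were chosen with earlier results of these data known.

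None of the stage lists held a called gene. Of the 12 other early genes, 6 had a fold change above 0 and 6 below (median log2 fold change -0.053, 0 called). Among them Plac8 had 1591, 1109 and 802 CPM in RUX pools and 1584, 821 and 2112 CPM in untreated pools, and Ly6c2 319, 210 and 154 CPM in RUX pools and 141, 94.4 and 372 CPM in untreated pools. Nkg7 and Gstm1, the other most abundant of the list, had log2 fold changes of 0.27 ± 0.25 and 0.32 ± 0.31 (SE). The secondary list had a median log2 fold change of -0.87 (1 above 0, 8 below, 0 called) and the tertiary list of -0.70 (1 above, 10 below, 0 called). Ngp and Lcn2, of secondary granules, stood at -0.78 ± 0.67 and -0.92 ± 0.65, and S100a9, the partner of S100a8, at -0.81 ± 0.68 (SE). With single pools left out the medians ran from -1.42 (without untreated pool 1) to -0.49 (without untreated pool 3) for the secondary list, from -0.999 (without RUX pool 4) to -0.24 (without untreated pool 3) for the tertiary list, and from -0.25 (without untreated pool 2) to 0.48 (without untreated pool 3) for the other early list. The signs of the secondary and tertiary medians turned in limma-voom with quality weights, to 0.30 for the secondary list and 0.0090 for the tertiary list.

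As a list mean, genes that pack, process or restrain the granule proteins varied less. The mean deviation of 14 other contents, packing genes and inhibitors spanned 0.44 from the lowest to the highest pool. That of the 6 genes spanned 1.79. A list mean spans less where its genes do not move together. The r of these 14 with the 6 genes ran from 0.092 to 0.946. Of these 14, 10 had a fold change above 0 and 4 below, with a median log2 fold change of 0.063 and 0 called. In 3 of the 14 the RUX pools lay entirely above the untreated pools, where 2.99% of all genes tested did so. Srgn, whose proteoglycan serglycin holds the proteases in the granule, had 1370, 998 and 784 CPM in RUX pools and 985, 783 and 1320 CPM in untreated pools, and its r with the 6 genes was 0.884. Cd63, a granule membrane protein, had an r of 0.903. The r of Serpinb1a, an inhibitor of elastase, was 0.751, and that of Lyz2, lysozyme, which later granules hold too, was 0.404. Lyz2 ranged over 3.23-fold from its lowest to its highest pool, more than Mpo at 2.55-fold and less than Elane at 4.92-fold. Srgn, Cd63 and Serpinb1a ranged over 1.75-fold, 2.09-fold and 1.83-fold. The 7 genes of myeloperoxidase folding and processing had a median log2 fold change of -0.038 (3 above 0, 4 below, 0 called). Calr, a chaperone that binds the myeloperoxidase precursor, ran from 1402 to 1505 CPM in RUX pools and from 1141 to 1864 CPM in untreated pools, with an r of 0.839 with the 6 genes. Pdia3, P4hb and Hspa5, which encode protein folding factors of the endoplasmic reticulum, had fold changes of -0.038, -0.087 and -0.048 on the log2 scale. Their r with the 6 genes was 0.785, 0.675 and 0.013. Over the 7 genes r ran from -0.712 (Canx) to 0.839 (Calr), with Furin at -0.709.

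Myeloid transcription factors ranged widely in how closely they followed the 6 genes. The 12 listed had a median log2 fold change of 0.058 (7 above 0, 5 below, 0 called) and a median r of 0.756 with the 6 genes. Cebpa, which encodes C/EBP alpha and is needed to form granulocyte progenitors, had 38.5, 33.5 and 27.2 CPM in RUX pools 4, 5 and 6 and 28.8, 19.9 and 40.4 CPM in untreated pools 1, 2 and 3 (r = 0.992). Gfi1 (r = 0.984) and Cebpe (r = 0.977) were nearly as close, whereas Rara had the lowest r of the list (-0.833) and Runx1 stood at -0.274. These genes were named after their values were seen. Spi1, which encodes PU.1, had an r of 0.907 and a log2 fold change of 0.011 ± 0.21 (SE). Myb, the most abundant factor, did not follow the 6 genes (r = -0.455), at 473 to 565 CPM in RUX pools and 497 to 594 CPM in untreated pools, and neither did Cbfb (r = -0.272). Irf8, which directs progenitors to the monocyte line, stood at -0.43 ± 0.18 on the log2 scale (fold change and SE; adjusted p = 1.00 by edgeR) with an r of 0.419. Of the 5 growth factor receptors 2 were above 0 and 3 below (median log2 fold change -0.015, 0 called). Csf3r, the G-CSF receptor, had 41.2, 46.6 and 42.1 CPM in RUX pools and 40.1, 35.5 and 53.2 CPM in untreated pools, a far narrower range than that of Elane. Csf2rb and Csf2ra, subunits of the GM-CSF receptor, had an r of 0.958 and 0.864 with the 6 genes, and Csf1r, the M-CSF receptor, of 0.283.

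Among 7279 other genes with a mean of at least 20 CPM, 188 (2.58%) had an r of at least 0.9 with the mean of the 6 genes, and 187 an r of -0.9 or lower. The 10 with the highest r were Abhd11 (0.995), Ly6c1 (0.995), Fcgr3 (0.992), Cebpa (0.992), Ly6c2 (0.990), Cdk5 (0.988), Lta4h (0.985), Gstm1 (0.985), Ptgr1 (0.984) and Trex1 (0.982), each over 6 pools. Fcgr3, an Fc receptor of myeloid cells, had 58.3, 48.4 and 36.7 CPM in RUX pools 4, 5 and 6 and 36.5, 21.3 and 78.6 CPM in untreated pools 1, 2 and 3. Abhd11, first in r, moved far less in size, from 73.4 to 82.1 CPM in RUX pools and from 63.9 to 85.1 CPM in untreated pools.

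Many, though not all, markers of other granulocytes ran with the 6 genes across pools. Of 10 eosinophil markers 8 were tested, with a median r of 0.886 and a median log2 fold change of 0.13 (6 above 0, 2 below, 0 called); their summed level was 112 to 427 TPM in RUX pools and 94.9 to 454 TPM in untreated pools. Prg2, the major basic protein of eosinophils, had 207, 80.7 and 41.3 CPM in RUX pools 4, 5 and 6 and 40.1, 35.7 and 214 CPM in untreated pools 1, 2 and 3, high in the same pools as Ms4a3, and Prg3, its homologue, had an r of 0.938, whereas Ear2 had an r of 0.014. Of 10 basophil and mast cell markers 8 were tested, with a median r of 0.878 and a median log2 fold change of 0.17 (6 above 0, 2 below, 0 called), at 268 to 384 TPM in RUX pools and 244 to 365 TPM in untreated pools in sum; Mcpt4 was at 0 in every pool. Mcpt8, a basophil protease gene and the neighbour of Ctsg on chromosome 14, had 47.9, 30.0 and 22.7 CPM in RUX pools and 19.4, 14.8 and 51.1 CPM in untreated pools (r = 0.976). Cpa3, a mast cell carboxypeptidase and the most abundant of that list, did not follow them (r = 0.307), at 148, 136 and 87.6 CPM in RUX pools and 128, 109 and 106 CPM in untreated pools. The part of these cells in the spread of the 6 genes was not tested.

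Kit, the antigen used for the sort, ran against the 6 genes, with 295, 412 and 416 CPM in RUX pools 4, 5 and 6 and 409, 471 and 196 CPM in untreated pools 1, 2 and 3 (r = -0.845 over the 6 pools). Its lowest values were in untreated pool 3 and RUX pool 4, the pools in which Ms4a3, Elane and Prtn3 were highest, and its highest was in untreated pool 2, where they were lowest. The 4 tested sort antigens had a median log2 fold change of -0.21 (1 above 0, 3 below, 0 called), summing to 136 to 214 TPM in RUX pools and 110 to 244 TPM in untreated pools. The part of the sort in the spread of the 6 genes was not tested. The 12 erythroid markers had a median r of -0.562 with the 6 genes, at 6056 to 10418 TPM in RUX pools and 6752 to 8706 TPM in untreated pools in sum. The 9 tested stem cell markers had a median r of -0.532, at 111 to 134 TPM in RUX pools and 79.9 to 125 TPM in untreated pools.

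The remaining cell type lists held 0 called genes. Their median log2 fold changes were -0.28 for monocytes and dendritic cells, 0.049 for erythroid cells, 0.30 for megakaryocytes and platelets, 0.14 for stem cells, -0.14 for lymphoid progenitors and B cells, -0.40 for T and NK cells, 0.020 for plasma cells and -0.059 for stromal and endothelial cells. Of 8 macrophage markers only 2 passed the filter on low counts (median 0.12), and Marco was at 0 in every pool.

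Apart from Elane and Prtn3 themselves, the genes beside the 6 on the chromosome ranged in mean level from 0 TPM (Gzme) to 69.3 TPM (Rnf126). Lpo, which encodes lactoperoxidase and lies 2015 bases beyond Mpo, had 33, 26 and 20 counts in RUX pools 4, 5 and 6 and 5, 7 and 12 counts in untreated pools 1, 2 and 3; here the RUX pools lay above the untreated pools, as in 2.99% of the genes tested (log2 fold change 1.28 ± 0.57, SE; edgeR adjusted p = 1.00). Bzrap1, on the other side of Mpo, averaged 1.44 TPM. Cfd, 2636 bases beyond Elane, had 0 to 2 counts in RUX pools and 1 to 6 counts in untreated pools and was not tested. Gzme, beside Ctsg, had 0 counts in every pool. Lppr3, beside Prtn3, averaged 21.1 TPM and had a 1.68-fold range, where Prtn3 had 3.22-fold. Beside Ms4a3, Ms4a2 averaged 14.4 TPM and ranged over 1.80-fold, with an r of 0.524 with the 6 genes, and Oosp2 averaged 0.946 TPM. Rnf126 and Palm, on either side of Prss57, averaged 69.3 and 42.0 TPM, with an r of 0.429 and 0.904.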

How the data were processed

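Libraries of 6 pools of sorted bone marrow cells were made with a SMART-Seq mRNA LP kit, per the labels' protocols. Reads were aligned to mm10 with STAR, per the submitters' processing notes (its version is not stated). Per the file headers, the authors then counted read pairs over the exons of each gene of the UCSC mm10 annotation with featureCounts 2.0.3, and the deposited table holds these counts, not normalised, and the exon length of each gene. No strand option is recorded, so a gene and its antisense partner cannot be told apart; pairs mapping to several places or genes were left out by the tool's defaults. In GENCODE M21 transcripts, Elane, Ctsg and Ms4a3 shared 0 stretches of 50 bases with other genes, Prtn3 110 of 1706 with Plppr3, Mpo 332 of 3508 with other genes and Prss57 1108 of 2887 with Fstl3. Reads carry no stated molecular identifiers, so Wilson intervals of shares cover counting error only, whereas the intervals of fold changes come from the fit over pools.

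Groups came from the labels' treatment. Pools came from different mice, so a p-value sets the group difference against the variation among pools of this kind. Genes were filtered with filterByExpr in edgeR 4.0.16 (13411 kept, at least 99.96% of the counts of a pool), scaled by TMM (factors 0.938 to 1.035) and tested with glmQLFit and glmQLFTest (quasi-likelihood, two-sided) with Benjamini-Hochberg adjustment over all tested genes at 0.05, in R 4.3.3. CPM refer to the TMM-scaled library; TPM were computed from counts and deposited exon length. Spread and correlations used log2(CPM + 1). Exact permutation tests went through every arrangement of the pools. SciPy gave Spearman's rho, the Wilson intervals and the adjustment over member pairs. The tests were checked on simulated data. The members, the 19 lists beside them and the motifs were chosen with earlier results of these data known. Named beside the 6 were the 4 genes of highest mean TPM of each stage or pathway list, the 2 highest of each cell type list where a result turned on them, the 10 most alike genes and the nearest genes on either side. The table lacked 2 of the listed symbols. Alternatives were other scalings, filters, DESeq2 1.42.0, limma-voom 3.58.1, other pseudocounts and each pool left out in turn.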

Additional observations from a re-analysis of the deposited data

How the results depend on the processing

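Over 16 alternative fits, 0 of the 6 genes was called in any. The count of called genes over the whole table was 0 in 14 of them, 14 (of 19186 tested) with no filter on low counts and 1 in limma-voom with quality weights; the cause was not tested. Leaving out each pool in turn called 0 genes each time and gave log2 fold changes, RUX minus untreated, of -0.12 to 0.56 for Mpo, -0.086 to 1.16 for Elane, 0.019 to 0.97 for Prtn3, -0.24 to 0.61 for Ctsg, -0.17 to 1.04 for Ms4a3 and -0.10 to 0.68 for Prss57, with a median of the 6 genes of -0.11 to 0.82. The low ends came without untreated pool 2, except for Prtn3 (without RUX pool 4; Ctsg and Ms4a3 were also below 0 there), and the high ends without untreated pool 3. The smallest adjusted p in any fit was 0.708 (Elane in edgeR without untreated pool 3, unadjusted p = 0.000541). The median within-group SD of the 6 genes was 0.466 to 0.816 with a pool left out, and 0.420 when untreated pool 3 was dropped along with RUX pool 4. All 15 pairs passed the adjusted exact permutation test of Pearson's r in the 3 alternatives of pseudocount and scaling. No paired analysis was possible because pool numbers are not shared between the groups. The lowest count of any of the 6 genes was 1203, where counting error is 2.88%; single pools moved the fold changes far more than that, in both directions.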
